A study of Mus musculus with 24 samples.

Results

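Infarcted hearts of mice with a constitutively active phosphoinositide 3-kinase transgene (caPI3K MI, 4 arrays) were compared with infarcted hearts of nontransgenic mice (Ntg MI, 4 arrays). These 8 of the 24 arrays of the series were taken by their titles, and 14763 genes were tested. All mice were of the FVB/N strain, and all 8 hearts had a myocardial infarction (MI) operation at 4 months of age and were collected 8 weeks later. The caPI3K transgene was expressed in the heart per the labels, and the labels leave its promoter unstated. The other 16 arrays are sham-operated Ntg and caPI3K hearts and hearts with a transgene that lowers PI3K activity (dnPI3K, cardiac-specific per the labels) after sham operation or MI, 4 arrays each. A characteristic of the caPI3K MI samples is named for sham, but its value and every title say MI, which was followed here. Hearts were homogenized individually, but no label ties an array to an animal of its own. The p-values therefore measure only the spread between these arrays, which may be technical.

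PI3K is a lipid kinase downstream of the insulin and IGF1 receptors, which reach it through adaptors such as IRS1. Its product recruits the kinase Akt, which phosphorylates FoxO transcription factors and keeps them out of the nucleus. In heart muscle this pathway is known for growth in postnatal development and after exercise training, and mice with altered cardiac PI3K activity have been used to compare hearts under stress.

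Every gene's level is given as log2 of the array signal plus a small constant, and a difference of 1 is a factor of 2 in that quantity. The cardiomyocyte gene *Myh6* was at or above the 99.9th percentile on each of the 8 arrays. Array pairs correlated at 0.956 to 0.962 between the genotypes, at 0.958 to 0.96 within Ntg MI and at 0.958 to 0.964 within caPI3K MI, and for 4 of the 8 arrays the best correlated array was of its own group. Median signal was 104.8 to 113.3 on caPI3K MI and 104.9 to 110.6 on Ntg MI arrays, a difference within the spread (exact permutation test, two-sided, p = 0.571; the smallest p that 4 against 4 arrays allow is 0.0286). On all 8 arrays *Xist* lay between 12.70 and 13.14 and *Eif2s3y*, a Y-linked gene, between 3.95 and 5.21, whereas 3 of the 4 caPI3K sham arrays carried Y-linked signal. The labels give no sex for the animals.

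One array outside the comparison touches several results. The array labelled Ntg sham replicate 4 had *Bex1* at 8.60, against 10.98 to 11.42 on the other 3 Ntg sham arrays. *Bex1* was at 8.21 to 9.51 on the caPI3K sham arrays and at 9.24 to 9.72 on the caPI3K MI arrays. *Mfap4*, a microfibril protein of fibrous matrix, was at 9.20 on this array, against 4.51 to 4.95 on the other Ntg sham arrays. It was at 4.49 to 5.34 on caPI3K sham, 9.86 to 10.37 on Ntg MI and 9.20 to 9.81 on caPI3K MI arrays. One dnPI3K sham array also reached 8.56 for *Mfap4*. For *Nppa* the array was at 15.61, above the caPI3K MI arrays (15.10 to 15.45) and the Ntg MI arrays (15.45 to 15.57). Its mean correlation was 0.9483 with the other Ntg sham arrays, 0.9553 with caPI3K sham, 0.9573 with Ntg MI and 0.958 with caPI3K MI arrays. Part of this is shared by Ntg sham replicate 3, at 0.9541, 0.9564, 0.9545 and 0.9547 in the same order. Replicates 1 and 2 were at 0.9521 and 0.952 with their own group and at 0.9514 and 0.9523 with caPI3K sham. With MI arrays of these 2 genotypes they were at 0.9491 to 0.9506. Replicate 4 thus goes against its label in these gene levels, and the main counts are given with and without it. It does not enter the difference between caPI3K MI and Ntg MI, but it does enter the estimate of the spread, which all 24 arrays share.

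No gene passed the test between caPI3K and Ntg infarcted hearts: 0 of 14763 genes (0%) were called by limma at a Benjamini-Hochberg adjusted p below 0.05, and the smallest adjusted p was 0.141, for *Pde1c*. At an unadjusted p below 0.05 there were 682 genes (4.62%), 355 higher (2.4%) and 327 lower (2.21%) in caPI3K MI. The 4 values of each group did not overlap for 534 genes (3.62%), 279 higher (1.89%) and 255 lower (1.73%). The median difference over all genes was 0.01 and the median size of a difference was 0.13. The 95% interval of a gene's difference extended 0.39 to either side at the median gene, with quartiles of 0.24 and 0.83. For 10665 genes (72.2%) the whole interval lay within 1 log2 unit of 0, and for 6880 genes (46.6%) within 0.5. A difference over 1 in size was seen for 266 genes, of which 6 had a mean level over 8. Since RNA of heart tissue was measured in bulk, fewer cells of a type and less RNA per cell cannot be told apart.

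The count of 0 depends on which arrays are fitted. Without Ntg sham replicate 4, limma with Benjamini-Hochberg adjustment called 9 genes (0.061%): *Septin4*, *H2ac19* and *Myl1* were higher in caPI3K MI, and *Bex1*, *Arhgap9*, *Tfpi*, *Pde1c*, *Gnb3* and *Irs1* lower. Leaving out this array changes only the spread, since the 8 arrays compared are the same. A fit on the 8 arrays alone called 3 genes (*Bex1*, *Myl1* and *Arhgap9*), one on the 12 infarcted arrays alone called 2 (*Arhgap9* and *Bex1*), and one without caPI3K MI replicate 2, which also changes the differences, called 2 (*Wipf3* and *Pde1c*). These are the 4 of 40 alternative settings that called any gene.

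**Figure D1:**
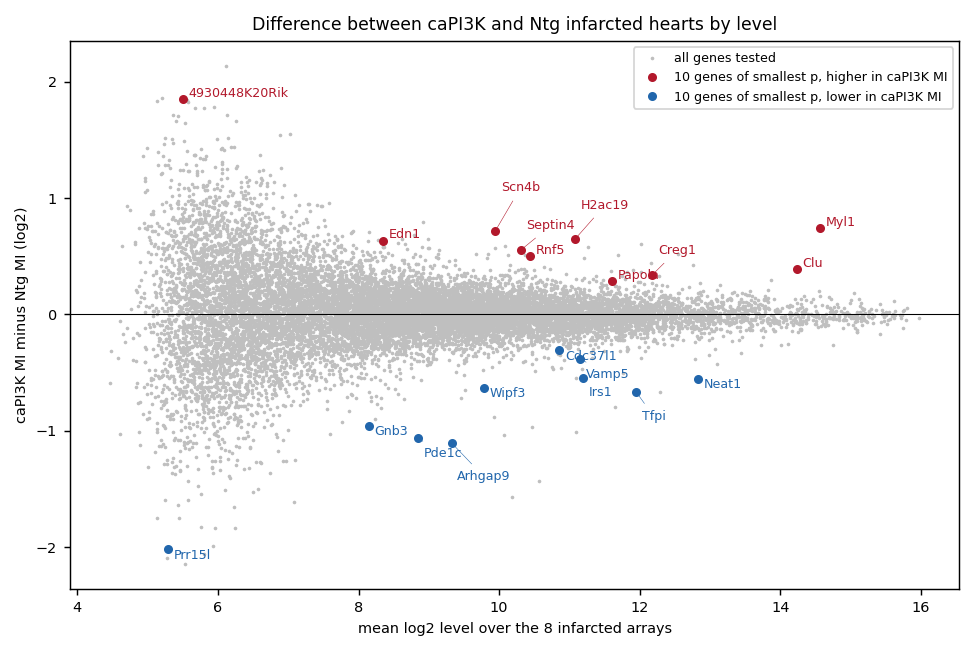
Difference between caPI3K MI and Ntg MI (log2, vertical axis) against the mean log2 level over the 8 arrays (horizontal axis) for 14763 genes, with the 10 genes of smallest p in each direction named. Differences spread widely at levels below 7; most of the named genes lie above 8, at the edge of a narrow band.

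None passed in the full fit, so what follows describes values of the genes with the smallest p. Among those lower in caPI3K MI, *Pde1c* encodes a calcium- and calmodulin-dependent phosphodiesterase that degrades cAMP and cGMP. Its levels were 9.13, 9.03, 9.85 and 9.48 on the Ntg MI arrays and 8.24, 8.72, 8.42 and 7.87 on the caPI3K MI arrays. Every caPI3K MI array was below every Ntg MI array. The difference was -1.06 (SE 0.19, 95% interval -1.46 to -0.66, n = 4 arrays per group), which makes the Ntg MI level 2.09 times the caPI3K MI level. The limma adjusted p (Benjamini-Hochberg) was 0.141, and 0.0124 without Ntg sham replicate 4. All 6 kept probe sets of *Pde1c* gave a lower level in caPI3K MI.

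The RefSeq promoter window of *Pde1c* is shown because this gene had the smallest p in both the infarcted and the sham comparison and the window holds the FoxO core GTAAACA, searched on both strands. It lies at chr6:56369585-56369884 of GRCm38.p6 on the minus strand and runs from 250 bases before the gene's start to 50 after it. Capitals mark the 2 matches, which begin 79 bases before and 14 bases after the start.

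Pde1c: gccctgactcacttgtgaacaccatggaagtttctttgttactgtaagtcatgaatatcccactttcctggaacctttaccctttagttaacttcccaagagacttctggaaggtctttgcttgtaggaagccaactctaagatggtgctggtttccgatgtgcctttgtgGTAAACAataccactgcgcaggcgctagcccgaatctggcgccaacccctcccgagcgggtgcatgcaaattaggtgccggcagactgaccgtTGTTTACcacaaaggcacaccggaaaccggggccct

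The other 2 windows listed for *Pde1c* hold no match. Of 32851 mouse windows of this length 3.65% hold the core, and 36 hold it more than once. *Pde1c* was the only gene with a match among the 13 of the 20 named genes that have a window, so 1 of their 19 windows (5.26%) holds it. A match is a run of letters, not a binding site.

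*Tfpi* encodes the tissue factor pathway inhibitor, which restrains the start of blood clotting. Levels were 12.36, 12.13, 12.52 and 12.13 on Ntg MI and 11.91, 11.68, 11.50 and 11.38 on caPI3K MI arrays, with no overlap. The difference was -0.67 (SE 0.14; limma, Benjamini-Hochberg adjusted p = 0.18, and 0.0124 without Ntg sham replicate 4). All 4 of its probe sets were lower in caPI3K MI.

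*Irs1*, the adaptor that links the insulin and IGF1 receptors to PI3K, is the member of the PI3K list with the smallest p. Its levels were 11.34, 11.48, 11.68 and 11.37 on Ntg MI and 10.80, 10.92, 10.93 and 11.04 on caPI3K MI arrays. The groups did not overlap. The difference was -0.54 (SE 0.12; limma, Benjamini-Hochberg adjusted p = 0.18, and 0.0321 without Ntg sham replicate 4).

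*Arhgap9* was at 10.16, 9.72, 9.93 and 9.69 on Ntg MI and at 8.91, 8.56, 8.92 and 8.69 on caPI3K MI arrays. All caPI3K MI arrays were lower, by 1.10 on average (difference -1.10, SE 0.25). The adjusted p of limma (Benjamini-Hochberg) was 0.218, and 0.00524 without Ntg sham replicate 4. *Gnb3*, a beta subunit of heterotrimeric G proteins, was at 8.85, 8.51, 8.66 and 8.49 against 7.49, 7.84, 7.45 and 7.89. Here too the groups were apart, with a difference of -0.96 (SE 0.22) and an adjusted p (limma, Benjamini-Hochberg) of 0.218, and of 0.013 without that array.

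The remaining genes of smallest p that were lower are *Neat1*, a long noncoding RNA of nuclear paraspeckles (-0.55, SE 0.12), *Vamp5*, a vesicle protein of muscle (-0.38, SE 0.09), *Cdc37l1*, a relative of the Hsp90 co-chaperone Cdc37 (-0.31, SE 0.07), *Wipf3*, an actin regulator (-0.63, SE 0.14), and *Prr15l* (-2.02, SE 0.44). *Prr15l* is dim, at 6.01 to 6.73 on Ntg MI and 3.92 to 5.18 on caPI3K MI arrays. *Wipf3* was the one gene of the 20 whose groups overlapped, with caPI3K MI replicate 2 at 10.01. For *Neat1*, *Vamp5* and *Cdc37l1* not all probe sets pointed the same way, and the mean over the probe sets of *Vamp5* differed by 0.13, the other way.

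Among genes higher in caPI3K MI, *Clu* encodes clusterin, a secreted chaperone. Levels were 13.92, 14.14, 14.02 and 14.07 on Ntg MI and 14.41, 14.57, 14.30 and 14.42 on caPI3K MI arrays. The 2 groups were apart, the difference was 0.39 (SE 0.09), and all 4 probe sets were higher in caPI3K MI. Its limma adjusted p (Benjamini-Hochberg) was 0.218, and 0.0814 without Ntg sham replicate 4.

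*Scn4b*, a beta subunit of voltage-gated sodium channels, was at 9.54, 9.66, 9.35 and 9.81 on Ntg MI and at 10.15, 10.33, 10.47 and 10.28 on caPI3K MI arrays. All caPI3K MI values were higher, with a difference of 0.72 (SE 0.19; limma, Benjamini-Hochberg adjusted p = 0.465, and 0.21 without Ntg sham replicate 4). *Myl1*, a myosin light chain of fast skeletal muscle, was at 14.15, 14.16, 14.07 and 14.38 against 14.87, 15.02, 14.76 and 15.08. It differed by 0.74 (SE 0.20), with no overlap, at an adjusted p (limma, Benjamini-Hochberg) of 0.483, and of 0.0216 without Ntg sham replicate 4.

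*Septin4*, a cytoskeletal GTPase, was at 10.04, 9.93, 10.30 and 9.87 on Ntg MI and at 10.58, 10.48, 10.58 and 10.70 on caPI3K MI arrays. The difference was 0.55 (SE 0.11) with no overlap, at an adjusted p of 0.18 (limma, Benjamini-Hochberg), and of 0.0175 without Ntg sham replicate 4. *Edn1*, the precursor of the vasoconstrictor endothelin-1, was at 8.33, 8.02, 7.93 and 7.86 on Ntg MI and at 8.64, 8.62, 8.55 and 8.86 on caPI3K MI arrays. Its groups were apart too, by 0.63 (SE 0.15; limma, Benjamini-Hochberg adjusted p = 0.265).

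The other genes of smallest p that were higher are the histone gene *H2ac19* (0.65, SE 0.13), whose near-identical relatives one probe set may not separate, *Rnf5*, a ubiquitin ligase of the endoplasmic reticulum (0.50, SE 0.13), *Creg1*, a secreted glycoprotein (0.34, SE 0.09), *Papola*, a poly(A) polymerase (0.28, SE 0.07), for which 1 of 5 probe sets pointed the other way, and *4930448K20Rik* (1.85, SE 0.41). The last is dim, at 4.31 to 5.18 on Ntg MI and 6.25 to 6.58 on caPI3K MI arrays, and its 3 kept probe sets differed by 1.85, 0.22 and -0.39, with a mean of 0.56.

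Each sample title ends in a number, called the array number here for short. Numbers under 1000 mark 3 caPI3K MI arrays and 1 Ntg MI array, so each side of this split has a group of 1 array. Within the lower and the higher numbers *Pde1c* differed by -0.85 and -1.04, *Tfpi* by -0.71 and -0.76, *Irs1* by -0.42 and -0.58, and *Myl1* by 0.84 and 0.56. These are values only, because 19 of the 20 genes do not overlap between the groups and any split then keeps their direction. What the numbers stand for is unstated in the labels.

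**Figure D2:**
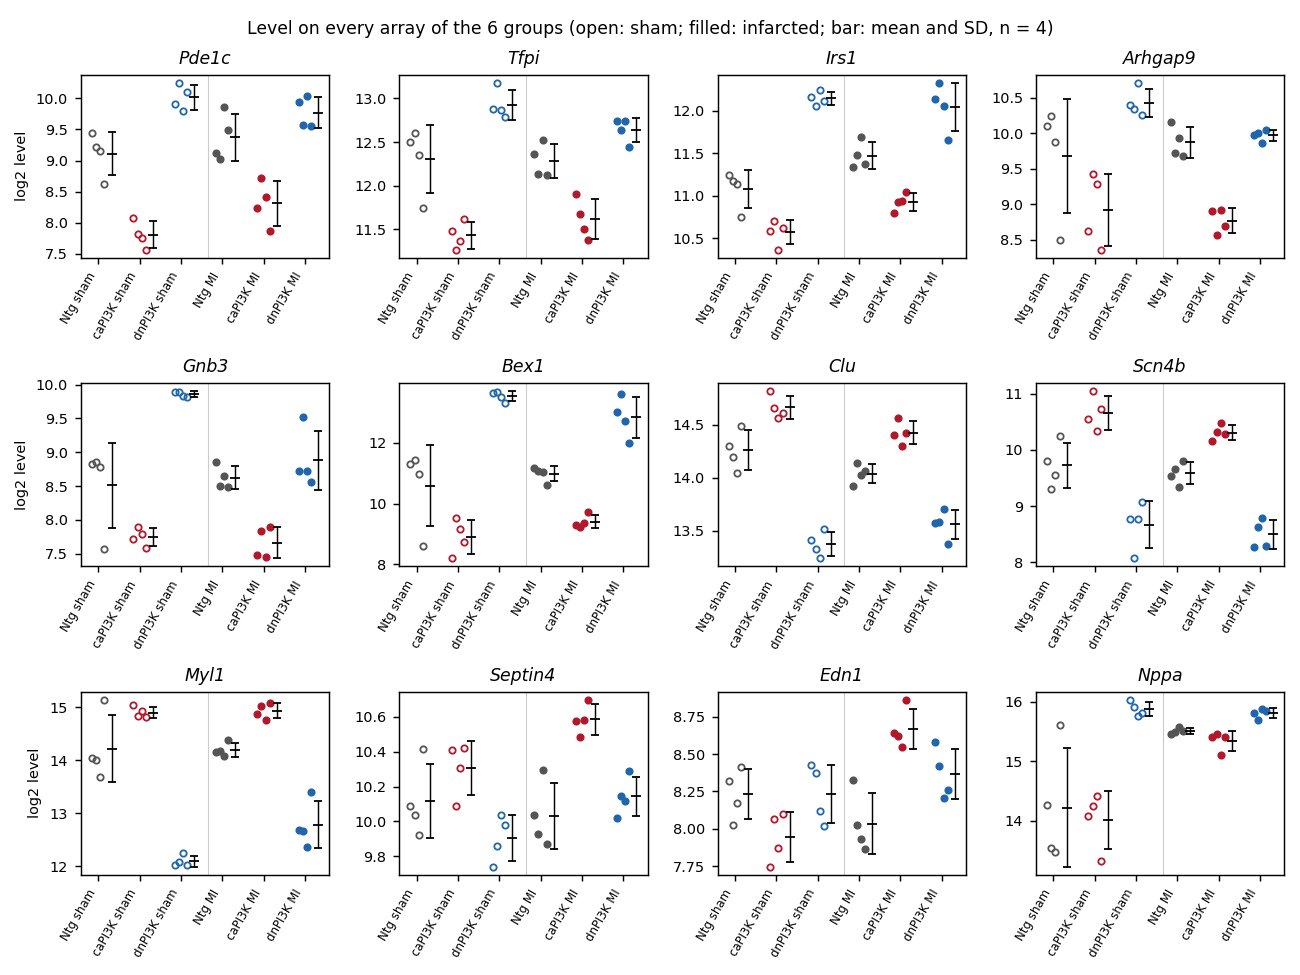
Log2 level of 12 genes on every array of the 6 groups, with points in replicate order from left to right and the mean and SD (n = 4) beside them. *Pde1c*, *Tfpi*, *Irs1*, *Gnb3* and *Bex1* are lower in caPI3K and higher in dnPI3K hearts than in Ntg hearts after either operation, *Clu*, *Scn4b* and *Myl1* the reverse, by group means; the rightmost Ntg sham point is replicate 4.

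Genotypes were also compared without infarction, on arrays that the infarct comparison does not use. Y-linked signal differs along with genotype there: *Xist* was at 6.77 to 7.08 on 3 of the 4 caPI3K sham arrays and at 12.65 on the fourth, against 12.83 to 13.18 on the Ntg sham arrays. The part of Y-linked signal in the sham differences was not tested. A fit without those 3 arrays is among the alternatives given at the end, but it leaves 1 caPI3K sham array and cannot decide this. The title numbers differ along with genotype as well. They run from 1410 to 1417 on the caPI3K sham arrays and are 415, 416, 1184 and 1185 on the Ntg sham arrays. No other array of the series is numbered in the caPI3K sham range, so genotype and that range cannot be told apart here. Between caPI3K sham and Ntg sham hearts 38 genes (0.257%) were called (limma, Benjamini-Hochberg), 16 higher (0.108%) and 22 lower (0.149%) in caPI3K, and 411 (2.78%) without Ntg sham replicate 4. The count fell to 10 without caPI3K sham replicate 2. It was lower still in some settings given at the end, such as a fit with no intensity trend. The spread is shared by all comparisons of the fit, but the differences themselves come from separate arrays. Of the 20 genes of smallest p after infarction, 15 had the same direction in sham hearts and 4 were called there: *Pde1c* (-1.30, adjusted p = 0.00325), *Tfpi* (-0.87, adjusted p = 0.00616), *Scn4b* (0.94, adjusted p = 0.0275) and *Clu* (0.41, adjusted p = 0.0496). Without Ntg sham replicate 4 these counts were 16 and 12, and *Irs1* (-0.62), *Myl1* (0.99), *Arhgap9* (-1.15), *Gnb3* (-1.08), *Creg1* (0.42), *Papola* (0.27), *Vamp5* (-0.36) and *Neat1* (-0.49) joined those called.

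For 15 of the 20 genes Ntg sham replicate 4 lay beyond the other 3 Ntg sham arrays on the side of caPI3K MI, against 1 to 2 genes for each of the other Ntg sham arrays. The mean level of the 10 higher genes minus that of the 10 lower genes was 1.31 on this array, 0.25 to 0.49 on the other Ntg sham arrays and 1.17 to 1.41 on the caPI3K sham arrays.

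For 5 of the 20 genes the sham difference had the opposite sign. *4930448K20Rik* differed by 1.85 after infarction and -0.69 in sham hearts, *Prr15l* by -2.02 and 0.57, and *Edn1* by 0.63 and -0.29. *Cdc37l1* differed by -0.31 and 0.10, and *Rnf5* by 0.50 and -0.04, the last sham value being 0.11 without Ntg sham replicate 4. The test of the difference between the infarct and sham differences called none of them. In it 0 of 14763 genes (0%) passed limma with Benjamini-Hochberg adjustment, with a smallest adjusted p of 0.464. An unadjusted p below 0.05 was found for 815 genes (5.52%). Without Ntg sham replicate 4 the count was also 0, with a smallest adjusted p of 0.0659. In that fit 1246 genes (8.44%) had an unadjusted p below 0.05, so a count of 0 does not show that the infarct and sham differences are alike.

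Most of the 38 genes called in sham hearts had the same sign after infarction. Of these, 34 (89.5%) differed in the same direction between caPI3K MI and Ntg MI, 13 of the 16 higher and 21 of the 22 lower ones. The median infarct difference was 0.23 for the higher and -0.24 for the lower genes, against 0.56 and -0.74 in sham hearts, beside 0.01 over all genes after infarction. At an unadjusted p below 0.05, 19 of the 38 genes followed the sham direction and 1, *Aen*, opposed it, whereas 4.62% of all genes had such a p. The same estimate of a gene's spread enters its sham and its infarct p. Genes called in sham hearts may therefore have a smaller infarct p than other genes for that reason alone. Without the 4 genes of the X chromosome (*Eif2s3x*, *Igsf1*, *Srpk3* and *Xist*) the count was 31 of 34, which leaves in any genes of other chromosomes that differ along with Y-linked signal. Of the 411 genes called without Ntg sham replicate 4, 332 (80.8%) had the same sign after infarction, and 87 had an unadjusted p below 0.05 in that direction against 6 in the other. Such a p was found for 5.13% of all genes in that fit.

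Among the genes of this set, those with an unadjusted p below 0.05 after infarction were named after their values were seen. *Shld1*, a subunit of the shieldin complex of DNA repair, differed by -0.88 (SE 0.25) after infarction and -1.25 in sham hearts. *Ehd4*, of endosomal transport, differed by -0.38 and -0.53, *Pygl*, the liver form of glycogen phosphorylase, by -0.44 and -0.63, and *Slc7a1*, a transporter of cationic amino acids, by -0.34 and -0.79. *Mturn* (-0.43), *Atpif1*, the inhibitor of the mitochondrial ATP synthase (-0.33), *1700025G04Rik* (-0.29), *Gm11716* (-0.24) and *Srpk3* (-0.22) were lower too. Higher in caPI3K MI were *Mybpc2*, the fast skeletal form of myosin-binding protein C (0.33, and 0.67 in sham), *Lrtm1* (0.36 and 0.55), *Cep19* (0.38 and 0.72), *Dhx32* (0.28 and 0.58), *Ino80c* (0.31 and 0.65) and *Rras2* (0.19 and 0.46). The mean over all probe sets of a gene turned the sign after infarction for *Dhx32* (-0.64), *Atpif1* (0.0030) and *Pex19* (0.10). The genes of opposite sign were *Aen* (-0.21 after infarction, 0.42 in sham), *Pex19* (-0.07 and 0.44), *Stat3* (-0.08 and 0.42) and *Xist* (0.02 and -4.59), the last at a low level on the 3 caPI3K sham arrays with Y-linked signal. Of the 46 RefSeq windows of these 38 genes, 5 (10.9%) hold the FoxO core, in *Pde1c*, *Il33*, *Dhx32*, *Ifitm1* and *Ypel3*. Over the genes called without Ntg sham replicate 4 the share was 4.46% of 202 windows for lower genes and 2.37% of 211 for higher ones.

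**Figure D3:**
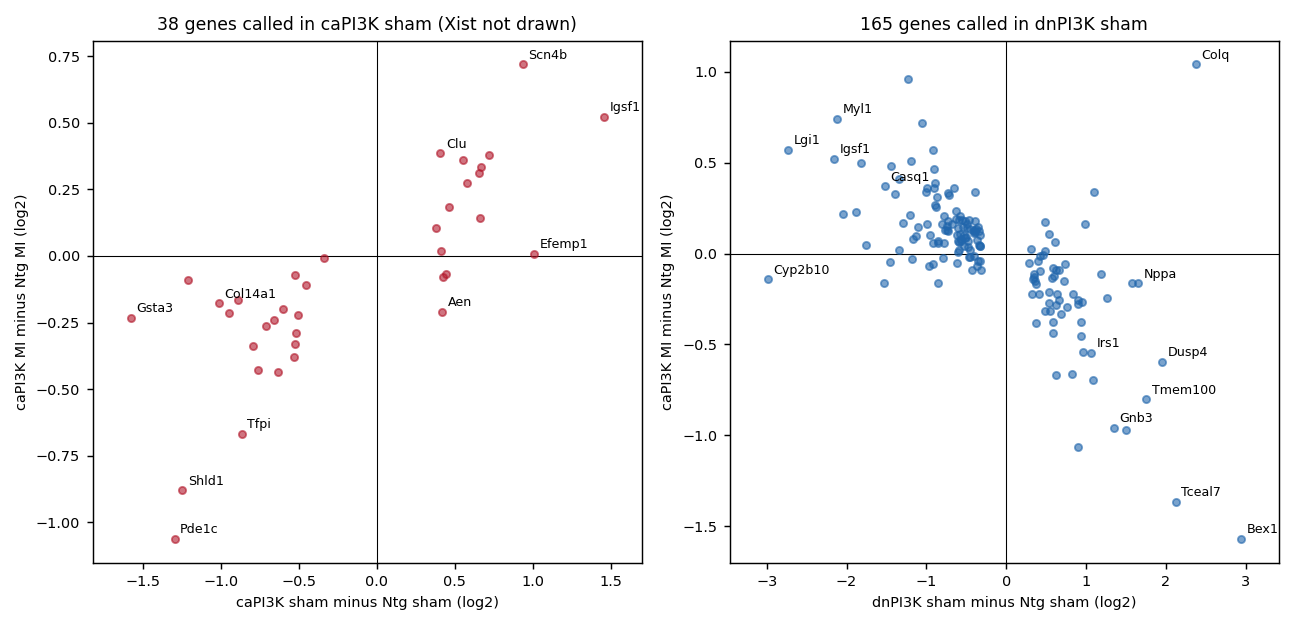
Difference between caPI3K MI and Ntg MI (log2, vertical axes) for the 38 genes called in caPI3K sham hearts (left, *Xist* not drawn) and the 165 called in dnPI3K sham hearts (right), against their difference from Ntg sham (log2, horizontal axes). On the left 34 of 38 genes have the same sign on both axes, and on the right 140 of 165 have opposite signs.

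The dnPI3K hearts give the pathway's other direction. In dnPI3K sham against Ntg sham hearts 165 genes (1.12%) were called, 61 higher (0.413%) and 104 lower (0.704%), none of these arrays being part of the infarct comparison. After infarction 140 of the 165 (84.8%) differed in the opposite direction between caPI3K MI and Ntg MI, 53 of the 61 higher and 87 of the 104 lower genes. At an unadjusted p below 0.05, 42 genes (25.5%) were opposite and 0 the same, beside 4.62% of all genes in either direction. Here too the same estimate of a gene's spread enters both p-values, which may raise that share. The median infarct difference was -0.22 for the genes higher in dnPI3K sham and 0.13 for the lower ones. Without Ntg sham replicate 4, 131 of 166 genes (78.9%) were opposite, 36 of them and 0 of the others at an unadjusted p below 0.05. In that fit 5.13% of all genes had such a p. Of the 183 RefSeq windows found for the 165 genes, 3 (1.64%) hold the FoxO core.

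*Bex1*, a small X-linked adaptor protein gene, was at 11.17, 11.08, 11.03 and 10.62 on Ntg MI and at 9.31, 9.24, 9.35 and 9.72 on caPI3K MI arrays. The groups were far apart for this gene, with a difference of -1.57 (SE 0.39), a Ntg MI level 2.97 times that of caPI3K MI, and a limma adjusted p (Benjamini-Hochberg) of 0.37, or 0.00524 without Ntg sham replicate 4. Its difference was -1.68 in caPI3K sham and 2.94 in dnPI3K sham hearts, and -2.34 and 2.28 without Ntg sham replicate 4.

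Of the other 4 genes raised most in dnPI3K sham hearts, *Tceal7* (-1.37, SE 0.40), *Tmem100* (-0.80, SE 0.23) and the MAP kinase phosphatase *Dusp4* (-0.59, SE 0.25) were lower in caPI3K MI by their values, and *Colq*, dim at 3.92 to 7.35, was higher (1.04, SE 0.61). Of the 5 lowered most in dnPI3K sham hearts, *Myl1* (0.74), *Igsf1* (0.52), *Lgi1* (0.57) and *Il3ra* (0.22) were higher in caPI3K MI and *Cyp2b10* (-0.14) was not. None of these passed the limma test with Benjamini-Hochberg adjustment in the full fit.

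Set beside the infarct difference of dnPI3K hearts, which shares the Ntg MI arrays, the caPI3K values were on the other side for some genes and on the same side for others. *Irs1* differed by -0.54 in caPI3K MI and by 0.57 in dnPI3K MI, *Bex1* by -1.57 and 1.86, *Clu* by 0.39 and -0.48, *Scn4b* by 0.72 and -1.09, and *Myl1* by 0.74 and -1.41. On the same side were *4930448K20Rik* (1.85 and 1.72), *Edn1* (0.63 and 0.33), *Rnf5* (0.50 and 0.20), *Cdc37l1* (-0.31 and -0.20), *Septin4* (0.55 and 0.11), *Papola* (0.28 and 0.05) and *Wipf3* (-0.63 and -0.09). In dnPI3K MI against Ntg MI 381 genes (2.58%) were called, 96 higher (0.65%) and 285 lower (1.93%), and 470 without Ntg sham replicate 4.

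Of the genes that infarction changed in dnPI3K hearts (1390 called, 9.42%, from arrays the comparison does not use, and 1588 without Ntg sham replicate 4), 4.75% had an unadjusted p below 0.05 between caPI3K MI and Ntg MI, beside 4.62% of all genes. The 624 genes (4.23%) that infarction raised had a median caPI3K MI minus Ntg MI difference of 0.02, and the 766 (5.19%) that it lowered one of -0.04. The sign of this difference was that of the infarct change in dnPI3K hearts for 875 of the 1390 genes (62.9%). The share was 58.3% of the raised and 66.7% of the lowered genes. At an unadjusted p below 0.05, 48 genes went in that direction and 18 in the other.

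The heart's markers of stress and remodelling gave small differences that did not pass. *Nppa*, the atrial natriuretic peptide, was at 15.45, 15.48, 15.57 and 15.51 on Ntg MI and 15.40, 15.45, 15.10 and 15.40 on caPI3K MI arrays. The groups just fail to overlap, and the difference was -0.16 (SE 0.27, 95% interval -0.73 to 0.40). *Nppb*, the B-type peptide, differed by -0.09 (SE 0.11), *Myh6* and *Myh7*, the alpha and beta myosin heavy chains, by -0.12 (SE 0.09) and -0.01 (SE 0.34), and *Acta1*, skeletal actin, by 0.18 (SE 0.17). *Atp2a2*, the calcium pump SERCA2, differed by -0.03 (SE 0.08) and its inhibitor *Pln* by 0.03 (SE 0.08). The collagens *Col1a1* and *Col3a1* differed by 0.17 (SE 0.34) and 0.02 (SE 0.25), and *Postn*, a protein of activated fibroblasts, by -0.09 (SE 0.31). The protease inhibitor *Timp1* differed by 0.24 (SE 0.29). For each of these 11 genes the limma adjusted p (Benjamini-Hochberg) was 0.999, and every interval lay within 1 log2 unit of 0.

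*Ppargc1a*, a coactivator of mitochondrial genes, was at 10.71, 11.23, 10.96 and 11.00 on Ntg MI and 10.37, 10.87, 10.42 and 10.43 on caPI3K MI arrays, with overlap. The difference of -0.45 (SE 0.19) had an adjusted p of 0.999 (limma, Benjamini-Hochberg), and of 0.796 without Ntg sham replicate 4. All 5 of its probe sets were lower in caPI3K MI. In sham hearts *Ppargc1a* was called only without Ntg sham replicate 4, where it differed by -0.86 (limma, Benjamini-Hochberg adjusted p = 0.00985). *Acadm*, an enzyme of fatty acid oxidation, differed by 0.10 (SE 0.09). *Pik3ca* and *Pik3r1*, which encode the catalytic p110 alpha and regulatory p85 alpha subunits of PI3K, differed by -0.14 (SE 0.15) and -0.02 (SE 0.16). Whether their probe sets read the transgene is unstated, so they check no label.

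Gene lists showed no called member: 37 lists with 886 distinct measured genes held 23 genes higher and 28 lower at an unadjusted p below 0.05, beside 2.4% and 2.21% of all genes. Without Ntg sham replicate 4, 3 of the 886 list genes were called, beside 9 of all 14763 genes (0.061%) in that fit. They were *Irs1* of the PI3K list, *Myl1* of the skeletal muscle list and *Bex1* of the Bex and Tceal list. The lists were chosen with earlier results of these data known. Of 39 genes of the PI3K, insulin and IGF1 pathway 19 were higher in caPI3K MI, with a median of -0.01 beside 0.01 over all genes, and *Irs1* alone had an unadjusted p below 0.05, while without Ntg sham replicate 4 2 higher genes, *Grb14* and *Igfbp5*, joined it. After it came *Grb14*, an inhibitory adaptor of the insulin receptor (0.18), the kinase *Akt2* (-0.15) and the receptor *Igf1r* (-0.23), the last at 0.02 as the mean of its probe sets. Of 27 FoxO factors and targets 11 were higher, with a median of -0.03. The smallest p were those of *Gabarapl1*, an autophagy protein (-0.23), *Slc40a1*, the iron exporter (0.38), *Cat*, catalase (0.11), and *Gadd45a*, a stress response gene (0.20).

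Lists of heart muscle function had medians close to that of all genes. They were -0.02 for 75 respiratory chain subunits, -0.01 for 32 genes of fatty acid use, -0.02 for 32 sarcomere and Z-disc genes and 0.02 for 51 genes of fibrillar matrix. Among 37 genes of glucose use 6 were higher (median -0.08), beside 51.9% of all genes, and the smallest p belonged to *Pygl* (-0.44), the hexokinase *Hk1* (-0.22) and the regulator *Pfkfb2* (-0.31). Among 18 clock genes 3 were higher (median -0.15), with *Rora* at -0.26, *Per3* at -0.34 and *Tef* at -0.26. Of 29 chaperones 15 were higher (median 0.03), and *Hsp90aa1* (0.30), *Hsph1* (0.51) and *Hspb1* (0.20) had an unadjusted p below 0.05 with no overlap between groups, where 2.4% of all genes were higher at such a p and 1.89% were higher with no overlap.

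**Figure D4:**
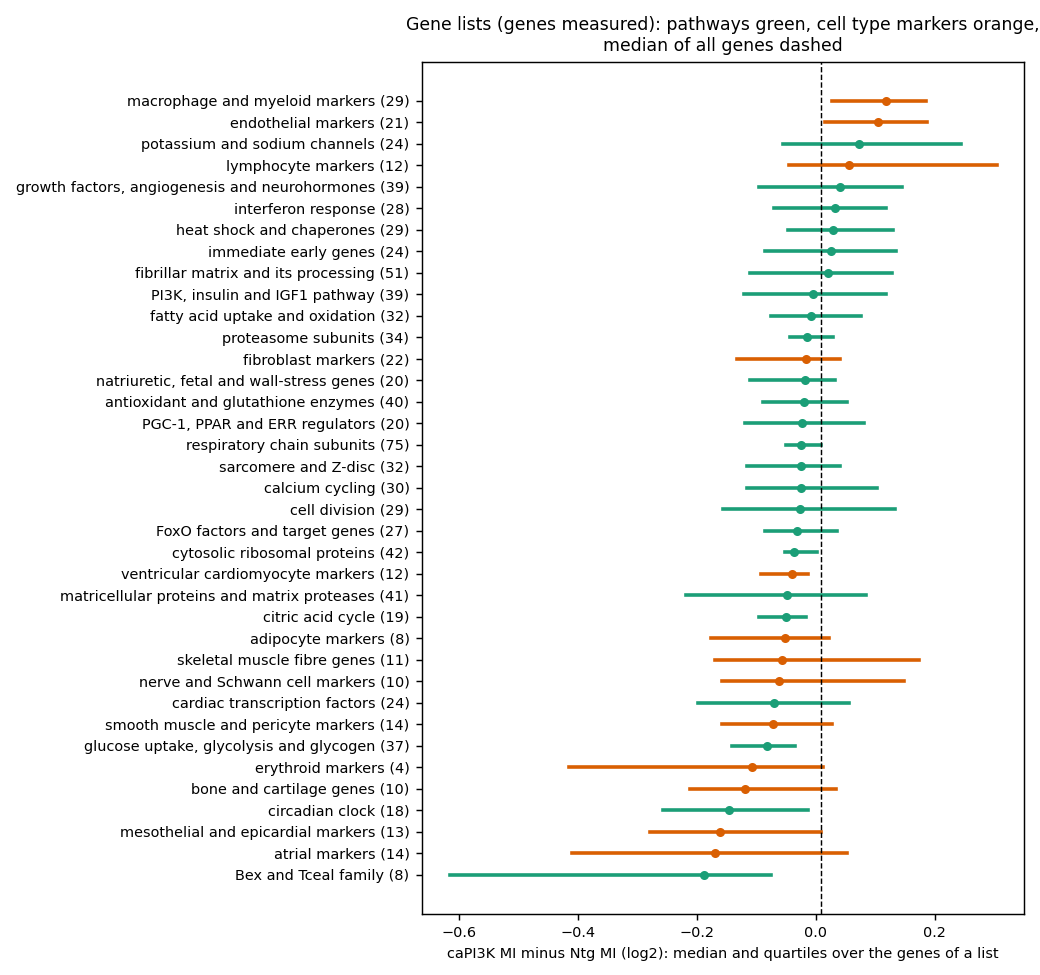
Median (points) and quartiles (lines) of the caPI3K MI minus Ntg MI difference (log2) over the measured genes of 37 lists, with pathways in green, cell type markers in orange and the median of all genes dashed. Medians run from -0.19 for 8 Bex and Tceal genes to 0.12 for macrophage markers.

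Levels of immune cell markers varied between arrays of the same genotype. Of 29 macrophage and myeloid markers 24 were higher in caPI3K MI (median 0.12), beside 51.9% of all genes. At an unadjusted p below 0.05, 4 were higher, beside 2.4% of all genes: *Ccr2* (1.26), *Cx3cr1* (0.93), *H2-Eb1* (0.70) and *Csf1r* (0.27). The mean level of this list, relative to the mean over the 8 arrays, was 0.51, -0.17, -0.25 and -0.42 on the Ntg MI arrays and 0.09, -0.28, -0.04 and 0.56 on the caPI3K MI arrays. One array of each genotype, Ntg MI replicate 1 and caPI3K MI replicate 4, was thus above the rest. The same arrays were highest in lymphocyte markers (0.68 and 0.37) and interferon response genes (0.81 and 0.57). Without both arrays limma with Benjamini-Hochberg adjustment again called 0 genes.

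Of 14 atrial markers 5 were higher (median -0.17), beside 51.9% of all genes. The myosin light chains *Myl7* (-1.01) and *Myl4* (-0.80) and sarcolipin, *Sln* (-1.43), an inhibitor of the calcium pump, were lower at an unadjusted p below 0.05. Of all genes 2.21% were lower at such a p. In caPI3K sham against Ntg sham hearts without Ntg sham replicate 4, where 2.78% of all genes were called, these 3 were called higher. Their sham differences there were 2.25 for *Sln*, 1.82 for *Myl7* and 1.33 for *Myl4*. *Clu*, also on this list, was higher with the smallest p of its members. The mean level of the list was -0.03, 0.28, 0.07 and 0.12 on Ntg MI and 0.09, -0.16, 0.09 and -0.46 on caPI3K MI arrays, so caPI3K MI replicates 2 and 4 were low. The labels do not say whether atria were included. Of 21 endothelial markers 16 were higher (median 0.10), of 22 fibroblast markers 10 (median -0.02) and of 12 ventricular cardiomyocyte markers 2 (median -0.04, from -0.12 for *Actn2* to 0.22 for *Irx4*). The part of cell types in the differences of single genes was not tested.

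**Figure D5:**
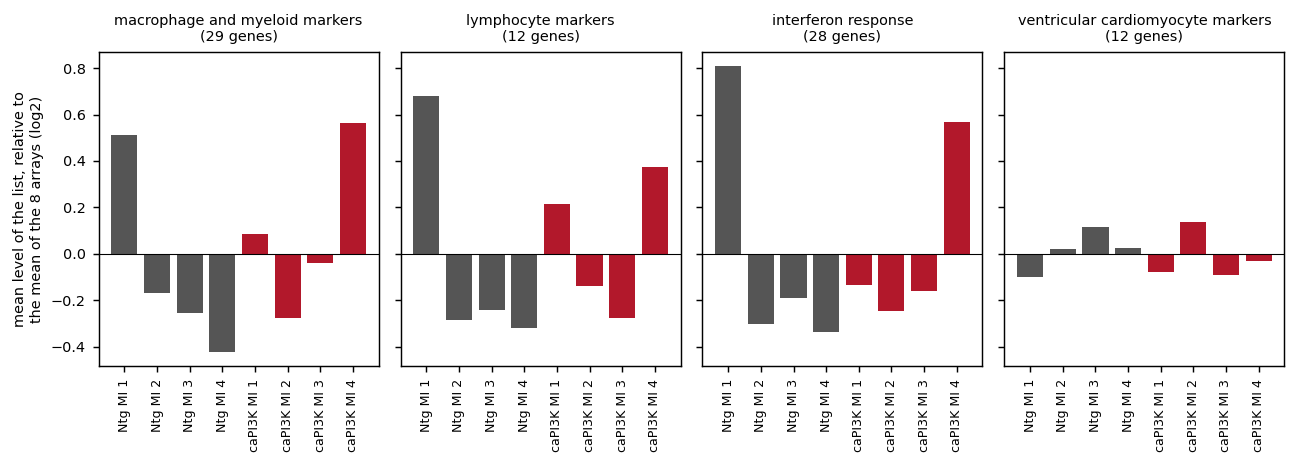
Mean log2 level of 4 marker lists on each of the 8 arrays, relative to the mean of the 8 (vertical axis, bars from 0; Ntg MI grey, caPI3K MI red). In the macrophage, lymphocyte and interferon lists Ntg MI replicate 1 and caPI3K MI replicate 4 stand above the other arrays, while the ventricular cardiomyocyte list varies little.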

How the data were processed

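The authors deposited 1 signal intensity per probe set and array, made with MAS5 per the submitters' processing notes, in a version not given in the sources used here. On all 24 arrays the mean signal after trimming 2 percent at each end was 500.003 to 500.004, so no further normalization was applied. Of 45101 probe sets, 64 controls were left out and 34945 name 1 gene. Probe sets had to exceed the 40th percentile of an array's signals on 4 or more arrays, and the one with the highest mean stands for its gene. Symbols follow the RefSeq list for GRCm38.p6. Values are log2 of signal plus 11.2, which understates differences of dim genes. A mean per group was fitted to all 24 arrays in limma 3.58.1 (R 4.3.3) with an intensity trend and 18 residual degrees of freedom. P-values were adjusted over 14763 genes by the Benjamini-Hochberg method and called below 0.05. Probe sets without 1 gene (5934) were tested apart, with 1 called, and are not named. The code was tested on simulated data. Figures were drawn with matplotlib.

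The genes named are 15 anchor genes written down for the heart, the 10 of smallest p in each direction, 4 each of the PI3K and FoxO lists, and genes called in sham hearts. The comparison, the gene lists and these rules were chosen with earlier results of these data known, and the sham panels after the infarct comparison had been seen. SE is the model's standard error of a difference. The number of arrays limits the precision. Alternatives changed the normalization, pseudocount, filter, probe sets, arrays in the fit and empirical Bayes step, and left out each array in turn.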

Additional observations from a re-analysis of the deposited data

Results flagged for a closer look

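Among 140 combinations of 70 named genes and the 2 groups, 10 had one array far from the other 3, by Dixon's gap test at its 95% critical value. A share of 1 in 20 is what chance alone flags. In Ntg MI, replicate 1 was at 14.81 for *Acadm* (others 14.97 to 15.00), at 5.18 for *4930448K20Rik* (others 4.31 to 4.42) and at 12.92 for *Neat1* (others 13.15 to 13.17). Replicate 2 was at 9.97 for *Ino80c* (others 9.49 to 9.50) and at 7.13 for *Dusp4* (others 7.46 to 7.48), and replicate 3 was at 10.33 for *Akt2* (others 10.01 to 10.06). In caPI3K MI, replicate 1 was at 5.18 for *Prr15l* (others 3.92 to 4.05), and replicate 2 was at 10.87 for *Ppargc1a* (others 10.37 to 10.43) and at 6.02 for *Colq* (others 7.13 to 7.35). Replicate 3 was at 15.10 for *Nppa* (others 15.40 to 15.45).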

How the results depend on the processing

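Over 40 alternative settings the 20 genes of smallest p gave 798 values, 797 in the reported direction and 13 past the threshold. The 70 named genes gave 2797 values, of which 26 reversed. The count of genes called between caPI3K MI and Ntg MI was 3 on the 8 arrays alone and 2 on the 12 MI arrays, and 0 to 9 with 1 array left out (9 without Ntg sham replicate 4, 2 without caPI3K MI replicate 2). The 38 sham calls became 18 with the mean of probe sets, 15 with array number as a term, 0 with no intensity trend, 4 without the arrays with Y-linked signal (a fit whose caPI3K sham group is 1 array, assumed to vary like the other groups), 5 without sham arrays 415 to 418, and 10 to 411 with 1 array left out: in replicate order these were 12, 13, 23 and 411 for arrays of Ntg sham, and 19, 10, 16 and 21 for arrays of caPI3K sham. Their share of the same sign after infarction was 75% in that fit with 1 caPI3K sham array and 78.8 to 96.7% with 1 array left out. The test of infarct against sham differences called 1 gene (*Myof*) in the same fit, resting on that array, 1 (*Trav9d-3*) without sham arrays 415 to 418, and 0 to 2 with 1 array left out (*Eif2s3x* and *Xist* without caPI3K sham replicate 4). Calls of dnPI3K MI against Ntg MI were 243 with no intensity trend and 217 to 491 with 1 array left out (217 and 227 without Ntg MI replicates 4 and 3, 247 without dnPI3K MI replicate 2). The 165 dnPI3K sham calls became 101 with no trend, 38 without sham arrays 415 to 418, and 77 (without dnPI3K sham replicate 2) to 187 with 1 array left out. Their share of opposite sign was 90.6% with array number as a term, 75.9% without the 2 arrays highest in macrophage markers, 94.7% without sham arrays 415 to 418, and 75.4 to 94.8% with 1 array left out. Differences that reversed were, with the mean of probe sets, *Vamp5* (0.13), *Igf1r* (0.022), *Atpif1* (0.0030), *Dhx32* (-0.64) and *Pex19* (0.098), with array number as a term, *Pln* (-0.052), *Postn* (0.017) and *Cyp2b10* (0.034), and without the 2 arrays highest in macrophage markers, *Pik3r1* (0.088) and *Pln* (-0.0098). With 1 array left out, differences that crossed 0 ran from -0.14 to 0.086 for *Pik3r1*, -0.12 to 0.10 for *Myh7*, -0.068 to 0.018 for *Atp2a2*, -0.14 to 0.15 for *Col3a1*, -0.052 to 0.095 for *Xist*, -0.36 to 0.066 for *Cyp2b10* and -0.093 to 0.46 for *Il3ra*. The cause was not tested. The fit without both arrays high in macrophage markers, the one without sham arrays 415 to 418 and those leaving out 1 sham or dnPI3K MI array were chosen after seeing the data. No paired analysis was possible because the labels give no replicate numbers that groups share.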
